A study of Mus musculus with 6 samples.

Results

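GC B cells taken on day 14 after immunization were compared with GC B cells taken on day 10. The comparison used 4 of the 6 RNA-seq libraries of the series, namely WT and Il21r-/- on day 10 and WT and Il21r-/- on day 14, chosen by their labelled day and paired by genotype. All mice were on the C57BL/6 background and had received NP-KLH in alum, and Il21r-/- cells lack the receptor for IL-21, so each day is represented by 1 WT and 1 Il21r-/- library and no mouse was left unimmunized. By the general methods of the study, which name no exception for these libraries, the mice were irradiated Ly5.1 recipients rebuilt with WT or Il21r-/- bone marrow, so host cells may remain in every group. The cells were sorted from spleen as NP-binding IgG1+ B220+ cells that lacked CD38, CD138, IgM, IgD and Gr1. The 2 libraries of day 7 entered the fit for the estimate of spread and are given as context. The series description counts 1 independent mouse behind each library, whereas the methods and a supplement speak of several mice per genotype, so the sources differ on how many mice stand behind a library. No source ties a library to a sort, an immunization or a preparation session, so day and any such session cannot be told apart.

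The germinal center (GC) is where B cells mutate their antibody genes and are selected for affinity. In its dark zone, cells that express the chemokine receptor CXCR4 divide and mutate, and in its light zone, cells that express CD86 and CD83 compete for antigen and T cell help. In a response to a protein in alum the splenic GC is full-grown by about the second week, and cells leave it as memory B cells or plasma cells. IL-21 comes from follicular helper T cells and supports the upkeep of the GC.

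Il21r itself (chromosome 7, 125603252 to 125634397, GRCm38.p6) separated the genotypes and not the days. It stood at 263 CPM (reads of the gene relative to the TMM-scaled library size) (WT) and 128 (Il21r-/-) on day 10, and at 247 and 113 on day 14, so reads of the locus were still counted in the knockout. The total count per library ranged from 21353438 to 27435124 reads. The GC B cell markers were all present. The 18 T cell markers summed to 187 and 196 CPM on day 10 and 188 and 205 on day 14, most of it from Lck and Cd2, and of the T cell receptor genes Cd3e had 1 or 2 reads and Trac 4 to 26 in these libraries. Reads of Xist and of Y-chromosome genes occurred together in every library. Xist had 2605 (WT) and 6792 (Il21r-/-) reads on day 10 and 1760 and 651 on day 14. Y-chromosome genes took 0.0893% and 0.0781% of the reads on day 10 and 0.0829% and 0.0856% on day 14. Xist thus fell in both genotypes, while the Y share fell in WT and rose in Il21r-/-. Xist and the Y-chromosome genes were left out of the tests. Whether the mix of sexes differed between the days, and its part in the results, was not tested. In a multidimensional scaling plot the first dimension (57.2% of the variance) separated the genotypes, and the second (25.0%) ordered the days 7, 10 and 14 in both genotypes.

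Of 11005 genes tested, 2398 (21.8%) were DE between day 14 and day 10 with edgeR's quasi-likelihood test at an adjusted p of 0.05, with genotype as a block. Of these, 1146 were higher on day 14 (10.4% of all genes tested) and 1252 were lower (11.4%). DESeq2's Wald test called 1570 genes, 939 higher and 631 lower, and gave no adjusted p for 2134 of the 11005. The study's likelihood ratio test, with dispersions from a linear effect of day, called 65. The edgeR fit without the genotype block, which also left out the day 7 libraries, called 0 (1387 at an unadjusted p under 0.05). Most of the differences were small. The median fold of the DE genes was 1.34, 435 passed 1.5-fold and 100 passed 2-fold, of which 52 were higher and 48 lower on day 14. The median log2 fold change over all genes was -0.05. The values of the 2 days did not overlap for 2125 of the DE genes, against 5322 of all genes (48.4%).

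The genotypes gave 2 separate views of the same interval, since the WT pair and the Il21r-/- pair share no library. The change had the same sign in both pairs for 8389 genes (76.2%), and across genes the changes correlated with a Pearson's r of 0.519 and a Spearman's rho of 0.616. Genes are not independent replicates, and these values are descriptions. Of 278 genes that were at least 1.5-fold higher on day 14 in WT, 219 (78.8%) were also higher in Il21r-/-, where 44.7% of all genes were higher. Of 356 genes that were at least 1.5-fold lower in WT, 299 (84.0%) were lower in Il21r-/-, where 55.3% of all genes were lower. The change was wider in Il21r-/-, with a median absolute log2 change of 0.276 against 0.184 in WT. With 1 library per genotype and day, spread cannot be estimated within a genotype. A test of either pair has to borrow it from the fit over all 6 libraries, and its calls are not given here. A test of the difference between the pairs was also run in edgeR. Its spread came from what genotype and day leave unexplained over the 6 libraries. That remainder is itself the way the change between days differs between the genotypes. The test therefore could not decide whether any gene changed differently in WT and Il21r-/-, and its calls are not given here.

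**Figure D1:**
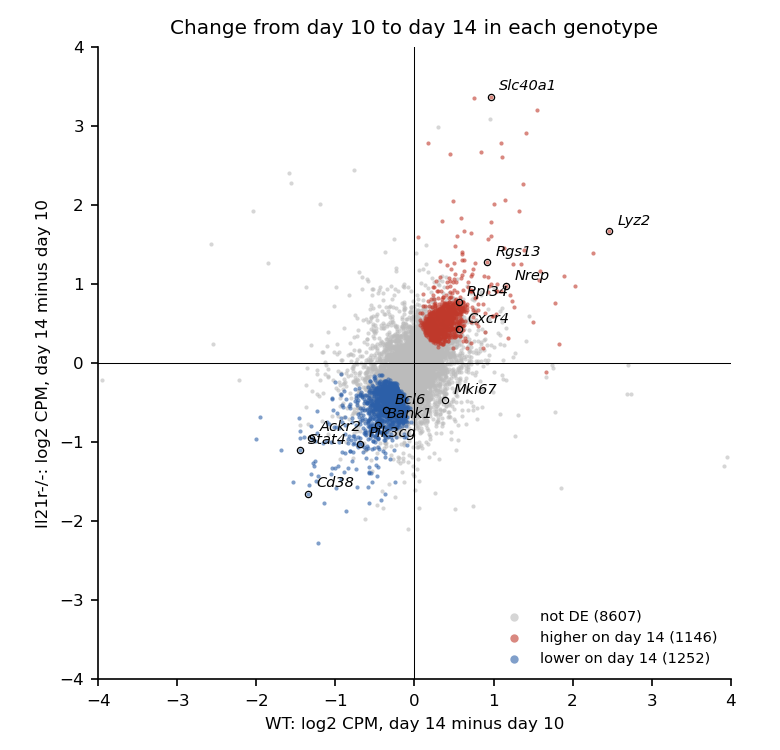
Log2 change in CPM from day 10 to day 14 in WT (horizontal) against Il21r-/- (vertical), 1 point for each of the 11005 genes tested. DE genes higher on day 14 (1146, red) and lower on day 14 (1252, blue) lie along the diagonal, and Rgs13 and Nrep are higher and Stat4, Ackr2 and Cd38 lower in both genotypes.

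Gene length moved with the change. Among the 2201 shortest genes, with up to 1451 exonic bases, the median log2 fold change was 0.26, and 763 were DE and higher against 22 lower. Among the 2201 longest, with 4549 bases or more, the median was -0.25, and 27 were DE and higher against 594 lower. The trend ran the same way in WT (medians 0.16 and -0.13) and in Il21r-/- (0.35 and -0.37), and it was as wide without ribosomal protein and oxidative phosphorylation genes (0.25 and -0.25). Relative to each gene's mean over the 6 libraries, the longest genes stood highest in the Il21r-/- day 10 library (median log2 deviation 0.23) and lowest in the Il21r-/- day 14 library (-0.13), with WT at 0.08 on day 10 and -0.05 on day 14. A smaller trend went with GC content, from 0.04 in the genes of lowest GC content to -0.17 in those of highest. A second fit therefore removed a smooth trend on length and GC content from each library. This corrected fit called 680 of 10249 genes (6.63%), 375 higher (3.66%) and 305 lower (2.98%), of which 485 were among the 2398. What lies behind the trend was not tested. The counts of each gene list that follow are to be read against the shares of all genes, 10.4% higher and 11.4% lower without the correction and 3.66% and 2.98% with it.

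**Figure D2:**
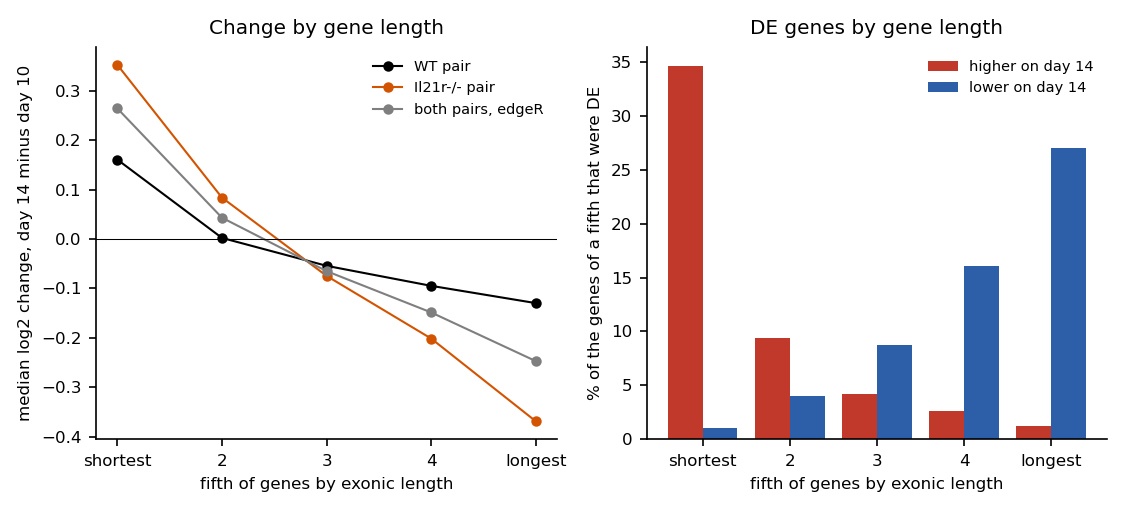
Left, median log2 change from day 10 to day 14 (vertical) in 5 equal bins of genes by exonic length (horizontal), for the WT pair, the Il21r-/- pair and the edgeR fit over both. Right, percent of the genes in each bin that were DE and higher (red) or lower (blue) on day 14. The median falls from 0.26 in the shortest to -0.25 in the longest genes, with the same order in both genotypes.

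The count also rested on single libraries. It was 84 DE genes without the Il21r-/- day 10 library, 286 without the Il21r-/- day 14 library and 689 without the WT day 14 library. Without the WT day 10 library the count was 2368. In these fits the lone library of a day is assumed to vary like the other days. Of 190 DE genes that were followed one by one, 25 stayed DE without each of the 4 libraries in turn, among them Rgs13, Nrep, Cxcr4, Rpl34, Hspe1 and Lyz2, which were higher on day 14, and Pik3cg, Prag1, Ackr2, Themis2, Vim and Cmpk2, which were lower.

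Rgs13 gave the smallest p of all genes. It encodes a regulator that shortens signalling through G-protein-coupled chemokine receptors and is a marker of GC B cells (chromosome 1, 144137386 to 144177372, GRCm38.p6). It stood at 474 CPM (WT) and 352 (Il21r-/-) on day 10, and at 896 and 849.7 on day 14. Both day 14 libraries thus lay above both day 10 libraries, and the day 7 libraries lay lowest, at 245 and 200.4 CPM. The log2 fold change was 1.10 (SE 0.0943, 2 libraries a day, edgeR adjusted p = 1.33e-08), and 0.79 in the fit corrected for length and GC content (adjusted p = 0.000599). Leaving out any 1 library left the adjusted p at 0.00047 or less.

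Cxcr4, the receptor that draws cells into the dark zone, also rose. It went from 261 CPM (WT) and 280 (Il21r-/-) on day 10 to 387 and 376 on day 14, with no overlap of the days. The log2 fold change was 0.50 (SE 0.0955, edgeR adjusted p = 0.000746), and 0.37 after correction for length and GC content (adjusted p = 0.0420). Gcsam, a GC-specific adaptor that restrains cell motility, rose by 0.33 on the log2 scale (SE 0.0913, edgeR adjusted p = 0.00973), from 721 and 653 CPM to 866 and 867. It lost its call without the Il21r-/- day 10, WT day 14 or Il21r-/- day 14 library. The dark zone list as a whole did not move one way. Of its 19 tested genes, 3 were DE and higher (Rgs13, Cxcr4 and Gcsam) and 4 lower, and its median was -0.14 (-0.04 after correction). The genes that fell were Bach2 and Pou2af1, which encode a repressor and a coactivator of B cell transcription, Foxp1, and the low-level surface gene Cd93.

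**Figure D3:**
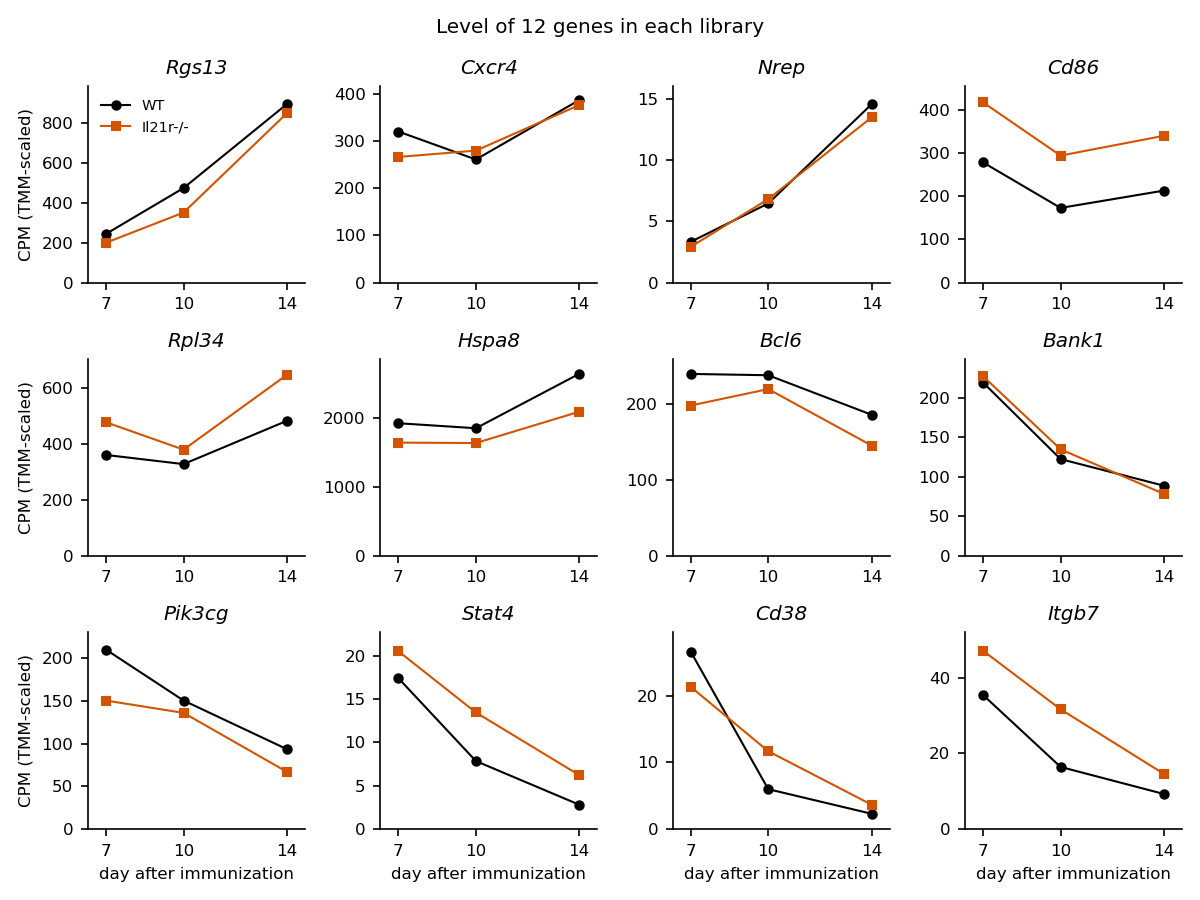
CPM (vertical, TMM-scaled, from 0) of 12 genes on days 7, 10 and 14 (horizontal) in WT (black circles) and Il21r-/- (orange squares), 1 library per point and no error bar. Rgs13 and Nrep are higher on each later day in both genotypes, Stat4, Itgb7, Pik3cg, Bank1 and Cd38 are lower, and Cxcr4, Rpl34, Hspa8 and Cd86 are higher on day 14 than on day 10.

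Among the 34 light zone genes tested, 4 were DE and higher, 5 lower, and the median was -0.03, shares of 11.8% and 14.7% that lie near those of all genes. After correction 1 was higher and 2 lower (median 0.04), and without the Il21r-/- day 10 library none was DE. Cd86, a costimulatory ligand for T cells, stood at 173 CPM (WT) and 294 (Il21r-/-) on day 10 and at 213 and 339.7 on day 14. Its log2 fold change of 0.25 (SE 0.0922, edgeR adjusted p = 0.0465) passed by a small margin and did not pass after correction (0.18, adjusted p = 0.159). The genotypes lay further apart than the days, so the day 10 and day 14 values overlapped. Cd83 had a log2 fold change of 0.21 that did not pass (adjusted p = 0.104), and so had Cd40, the receptor for the main T cell help signal (0.26, adjusted p = 0.0667). Cd70, a ligand of the TNF family, rose from 0.325 and 0.838 CPM to 0.937 and 3.41 CPM, a low level throughout. Bcl2a1a and Bcl2a1d, near-identical anti-apoptotic paralogs whose reads cannot be cleanly divided, rose by 0.64 and 0.55 on the log2 scale, and neither passed after correction. Dusp4, a phosphatase induced by MAP kinase signalling, fell from 9.35 and 7.77 CPM to 3.93 and 4.18 (log2 fold change -1.06, SE 0.199, edgeR adjusted p = 0.000611), and Slamf1 fell by 0.37 on the log2 scale. Both passed after correction as well.

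Of 34 transcription factors of the GC programme tested, 12 fell (35.3%, against 11.4% of all genes) and none rose, with a median of -0.25. Bcl6, the repressor on which GC identity depends (chromosome 16, 23965050 to 23988866, GRCm38.p6), was at 238 CPM (WT) and 219 (Il21r-/-) on day 10 and at 186 and 145 on day 14. The days did not overlap, and the log2 fold change was -0.48 (SE 0.0966, edgeR adjusted p = 0.00111) and -0.34 after correction (adjusted p = 0.0102). It was no longer DE without the Il21r-/- day 10 library (adjusted p = 0.143) or the Il21r-/- day 14 library (0.146). Bach2, which holds back plasma cell differentiation, went from 208 and 216 CPM to 166 and 132 (log2 fold change -0.53, SE 0.115), and Ikzf1, a lymphoid zinc finger factor, from 798 and 826 to 666 and 614 (-0.34, SE 0.0905). Neither passed after correction, where 4 factors were DE and lower and the median was -0.12. Without the Il21r-/- day 10 or the Il21r-/- day 14 library no factor was DE in this list, and without the WT day 14 library 6 were. The list's genes were long, with a median of 3662 bases.

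Several factors that mark other GC decisions did not pass. Foxo1, needed for the dark zone, had a log2 fold change of -0.27 (adjusted p = 0.0585). Myc, which marks positively selected light zone cells, was at 31.2 and 39.6 CPM on day 10 and 32.6 and 31.1 on day 14 (adjusted p = 0.424). Prdm1, the plasma cell regulator, stayed under 2 CPM in all 4 libraries. Irf4 (0.07) and Mef2b (-0.03) had log2 fold changes near 0.

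Of 35 B cell receptor signalling genes, 18 fell and none rose, with a median of -0.33. Against the 11.4% of all genes that were DE and lower, the list stood at 51.4%. Bank1, a scaffold between the receptor and calcium release, fell furthest among them, from 123 CPM (WT) and 135 (Il21r-/-) on day 10 to 88.9 and 78.5 on day 14 (log2 fold change -0.62, SE 0.102, edgeR adjusted p = 0.000142). It fell by 0.70 on the log2 scale after correction (adjusted p = 0.00012). The adaptors Pik3ap1 and Blnk and the inhibitory Fc receptor Fcgr2b also passed in both fits, Blnk going from 382 and 420 CPM to 313 and 311. The kinase Syk (-0.37), the lipase Plcg2 (-0.34) and the phosphatase Inpp5d (-0.39) were DE and had corrected-fit values of -0.05, -0.06 and -0.10, none of which passed. The receptor's own signalling chains did not pass without the correction, Cd79a at -0.17 (adjusted p = 0.171) and Cd79b at 0.05 (adjusted p = 0.720). After it Cd79a was lower (-0.26, adjusted p = 0.0322) and Cd79b did not pass (-0.08, adjusted p = 0.506). After correction 7 of the 35 were DE, all lower, and the median was -0.09. No gene of the 35 was DE without the Il21r-/- day 10 library, 2 were without the Il21r-/- day 14 library, and 3 without the WT day 14 library. The CD40, BAFF receptor and NF-kB list had 5 of 30 DE and lower, among them Map3k14, Nfkb1 and Traf6, and 1 higher, Fas. Of these, Nfkb1, a subunit of NF-kB, passed after correction (-0.27, adjusted p = 0.0358).

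Pik3cg had the smallest p of the genes that fell. It encodes the catalytic subunit of a phosphoinositide 3-kinase that acts behind G-protein-coupled receptors (chromosome 12, 32173397 to 32208677, GRCm38.p6). From 150.4 CPM (WT) and 136 (Il21r-/-) on day 10 it went to 93.5 and 67.0 on day 14, below 210 and 150.4 on day 7. The log2 fold change was -0.86 (SE 0.104, edgeR adjusted p = 7.46e-06), and -0.62 after correction (adjusted p = 0.000265). Ackr2, a scavenger receptor for inflammatory chemokines, went from 21.0 and 20.8 CPM to 8.43 and 10.8. Themis2, a signalling scaffold of B cells, went from 45.7 and 47.8 CPM to 27.9 and 24.9, and Prag1 from 40.6 and 49.7 to 22.1 and 22.4. In all of these the days did not overlap, and each passed in the corrected fit.

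Of the lists examined, that of the ribosome had the largest share of DE genes. Of 79 cytosolic ribosomal protein genes, 73 were DE and higher on day 14 (92.4%, against 10.4% of all genes), none was lower, and all 79 had a positive log2 fold change, from 0.20 to 0.85, with a median of 0.49. Rpl34 went from 328 CPM (WT) and 380 (Il21r-/-) on day 10 to 483 and 648 on day 14 (log2 fold change 0.66, SE 0.0910, edgeR adjusted p = 4.97e-05). Rps24 went from 1194 and 1423 CPM to 1786 and 2309, and Rps18 from 1091 and 1205 to 1626 and 1966. Together, ribosomal protein genes took 6.74% (WT) and 7.31% (Il21r-/-) of the reads on day 10, and 8.40% and 10.2% on day 14. These genes were short, with a median of 703 exonic bases, and after correction 28 were DE and higher, none lower, with a median of 0.19. The call of Rpl34 held after correction (0.33, adjusted p = 0.00772), and that of Rpl41 did not (0.25, adjusted p = 0.0666). Of the 79, 16 were DE and higher without the Il21r-/- day 10 library, 33 without the Il21r-/- day 14 library, and 69 without either WT library. None was DE with the likelihood ratio test on linear-day dispersions or without the genotype block, while the median was still 0.49 in the former. Ribosomal protein genes have many processed pseudogenes, and how reads shared with them were counted is not given in the sources used here. The same holds for Rps23rg1, a retrogene copy of a ribosomal protein gene that was among the 5 smallest p of the genes that rose.

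Of 74 nuclear genes of oxidative phosphorylation, which encode subunits of the respiratory chain and ATP synthase, 48 rose (64.9%, against 10.4% of all genes) and none fell in the fit without the correction, with a median of 0.37. Ndufa7 went from 122 and 130 CPM to 177 and 202, and Uqcrh from 471 and 506 to 663 and 774. Unlike the ribosomal proteins, this list kept few calls in the corrected fit, where 4 of 74 were DE, near the 3.66% of all genes, and the median was 0.03, and its members were equally short (median 680 bases). Ndufv2 was one of those that passed there (0.27, adjusted p = 0.0266). Of the 74, 1 was DE without the Il21r-/- day 10 library, 6 were without the Il21r-/- day 14 library, and 33 without the WT day 14 library. Whether the remaining rise is more than the trend with length was not tested.

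Genes of ribosome biogenesis and other Myc targets moved less. Of 54 tested, 10 were DE and higher (18.5%), 2 were lower (3.70%), and the median was 0.05. Hspe1, a mitochondrial chaperonin, rose from 187 CPM (WT) and 165 (Il21r-/-) to 276 and 285 (log2 fold change 0.67, SE 0.0976, edgeR adjusted p = 5.41e-05). Polr1c, a subunit of RNA polymerases I and III, rose from 87.8 and 93.8 CPM to 122 and 135. Phb, Mrto4 and Npm1 rose by 0.41 to 0.50 on the log2 scale, and Utp20 and Cad, both encoded by long transcripts, fell. After correction 6 were DE and higher and none was lower. Without the Il21r-/- day 10 library 1 was DE, and without the Il21r-/- day 14 library 2 were.

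Cell cycle genes moved in both directions. Mki67, a marker of cycling cells, stood at 302 CPM (WT) and 263 (Il21r-/-) on day 10 and at 396 and 189.5 on day 14. It thus was higher on day 14 in WT and lower in Il21r-/-, with a log2 fold change of -0.01 (SE 0.334, adjusted p = 0.985). Of 48 genes of the G1/S transition and DNA replication, 11 were DE and higher, among them Tyms, Pcna, Orc6 and Dut, and 4 were lower, among them Pole and Mcm4, with a median of 0.02. Of 72 G2/M genes, 8 were DE and higher, among them Cks2 and Cdk1, and 5 were lower, among them Espl1, Foxm1 and Plk1, with a median of -0.01. The G2/M shares (11.1% and 6.94%) lay near or under those of all genes. After correction, 2 of each list were higher and none was lower, and without the Il21r-/- day 10 library no gene of either list was DE. Tyms, which makes thymidylate for DNA synthesis, passed in both fits, going from 108 and 97.6 CPM to 148 and 142. None of the 13 replication-dependent histone genes tested, of 34 listed, was DE. Their median was 0.26, with -0.23 in the WT pair and 0.50 in the Il21r-/- pair, a difference that was not tested. Their summed level was low, at 39.8 to 61.3 CPM in the 4 libraries. Ccnd3, the D-type cyclin that dark zone cells rely on for their divisions, had a log2 fold change of -0.02 (adjusted p = 0.924).

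Few hypermutation and class switch genes passed. Of 30 genes tested, 2 were DE, both lower and both very long, the DNA damage kinases Atm (-0.56) and Prkdc (-0.44), and neither passed after correction.

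Of 43 interferon-stimulated genes tested, 13 fell (30.2%, against 11.4% of all genes) and 3 rose, with a median of -0.29. The median was -0.41 in the WT pair and -0.15 in the Il21r-/- pair, a difference that was not tested. Cmpk2, a mitochondrial nucleotide kinase, went from 7.16 CPM (WT) and 8.31 (Il21r-/-) on day 10 to 2.58 and 4.26 on day 14 (log2 fold change -1.18, SE 0.203, edgeR adjusted p = 0.000202; corrected fit -1.15, adjusted p = 0.00222). Oas3, which makes the second messenger that activates RNase L, went from 2.68 and 4.15 CPM to 0.609 and 2.09 (-1.37, SE 0.323, edgeR adjusted p = 0.0037). Oas1a, Oasl1, Oasl2, Ifit2, Ddx58 (the RNA sensor RIG-I), Ifi203 and the GTPase gene Irgm1 were lower too, all under 30 CPM. Among abundant members, the nucleotide hydrolase Samhd1 went from 657 and 679 CPM to 529 and 451, and Tap1, a peptide transporter of antigen presentation, from 326 and 348 to 222 and 280. The members that rose were the immunoproteasome subunits Psmb8 and Psmb9 and Ifi27l2a, all short, and none of them passed after correction. Several classical members did not pass, with Isg15 at 0.12 and Irf7 at -0.30. After correction 6 were DE and lower, none higher, with a median of -0.23. The number lower was 1 without the Il21r-/- day 10 library, 3 without the WT day 14 library, 5 without the Il21r-/- day 14 library and 7 without the WT day 10 library.

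The promoters of these genes can be set beside the values. The interferon-stimulated response element was searched on both strands as TTTC, any 2 bases and TTTC, which reads GAAA, any 2 bases and GAAA on the other strand, in RefSeq windows of 300 bases around the start of each gene (GRCm38.p6, 250 before and 50 after). The letters were present in 18 of the 35 tested members that had a window (51.4%). They were present in 5 of the 11 that were DE and lower and had one (45.5%). Among all 8529 tested genes with a window 325 (3.81%) had them, and among all 32851 single windows 3.44% did. A match describes letters and not a bound site. Windows of 4 of the genes that fell are shown up to their start, each on the minus strand of the chromosome and written 5′ to 3′ in the direction of the gene, with the matching letters in capitals, including 2 overlapping matches in Oas1a and in Irgm1.
Oas3 (chr5:120777660-120777794): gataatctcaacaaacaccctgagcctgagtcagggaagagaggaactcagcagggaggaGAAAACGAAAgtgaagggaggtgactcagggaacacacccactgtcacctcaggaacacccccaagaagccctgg
Oas1a (chr5:120907526-120907605): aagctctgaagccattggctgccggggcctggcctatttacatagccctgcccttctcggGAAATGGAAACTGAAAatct
Irgm1 (chr11:48871421-48871510): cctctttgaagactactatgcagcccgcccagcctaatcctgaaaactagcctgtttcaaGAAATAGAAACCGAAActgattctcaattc
Ifi203 (chr1:173942493-173942587): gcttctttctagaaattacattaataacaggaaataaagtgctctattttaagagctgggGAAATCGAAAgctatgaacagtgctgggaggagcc
The first match began 75 bases before the start of Oas3, 20 before that of Oas1a, 30 before that of Irgm1 and 35 before that of Ifi203.

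Of 27 genes of memory B cells and their precursors, 8 were DE and lower, 1 was higher, and the median was -0.33 (-0.34 after correction, with 3 lower and 1 higher). The share lower was 29.6%. Of 24 genes for confinement, chemotaxis and exit, 8 were DE and lower, 2 were higher (Rgs13 and Cxcr4), and the median was -0.34 (-0.18 after correction, with 4 lower and 2 higher). The share lower was 33.3%, and that of all genes 11.4%. Without the Il21r-/- day 10 library 1 memory gene and no exit gene was DE and lower, and without the Il21r-/- day 14 library 1 and 2 were. Without the WT day 14 library 3 and 4 were lower. Vim, an intermediate filament protein that memory B cells carry at a high level, went from 145 CPM (WT) and 147 (Il21r-/-) to 95.2 and 97.7 (log2 fold change -0.59, SE 0.0971, edgeR adjusted p = 0.000138), and by -0.71 after correction. Itgb7, an integrin chain for homing to the gut, went from 16.4 and 31.7 CPM to 9.27 and 14.6 (-0.99, SE 0.144, edgeR adjusted p = 5.5e-05). S1pr1, the receptor that draws lymphocytes out of tissue, went from 14.6 and 35.0 CPM to 9.79 and 22.6, and its activator Klf2 from 11.1 and 23.7 to 8.38 and 15.0. For both, each genotype fell, but the day 14 value of Il21r-/- lay above the day 10 value of WT. Nt5e, which encodes the ectoenzyme CD73, was the memory gene that rose, from 37.2 and 23.1 CPM to 57.1 and 30.8, in both fits. S1pr2, the receptor that confines GC B cells, had a log2 fold change of -0.15 (adjusted p = 0.234), and Gpr183, which must be low for cells to stay in the GC, one of -0.63 that did not pass (adjusted p = 0.123).

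Cd38 had the largest fall of the named genes, and CD38 was also a sort marker. It encodes a surface enzyme that mouse B cells lose on entry into the GC (chromosome 5, 43868809 to 43912374, GRCm38.p6), and cells positive for it were gated out. It went from 5.98 CPM (WT) and 11.7 (Il21r-/-) on day 10 to 2.29 and 3.65 on day 14, after 26.6 and 21.3 on day 7. The log2 fold change was -1.55 (SE 0.369, edgeR adjusted p = 0.0319), and the gene did not pass after correction (-1.61, adjusted p = 0.186) or without the Il21r-/- day 10 (0.164), WT day 14 (0.162) or Il21r-/- day 14 library (0.204). Of 15 markers of B cells outside the GC, 6 were DE and lower, S1pr1, Ighm, Cd55, Klf2, Ccr6 and Cd38, none was higher, and the median was -0.47. After correction 3 of 13 were lower, with a median of -0.52. Their summed level was 885 CPM (WT) and 1507 (Il21r-/-) on day 10 and 666 and 1040 on day 14. In a bulk sample, fewer cells of a type and less RNA per cell cannot be told apart, and the part of non-GC B cells in the fall of the memory and exit genes was not tested.

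Of 28 plasma cell and secretory genes, 7 rose (25.0%) and 2 fell (7.14%) with a median of 0.09. Without the Il21r-/- day 10 or the Il21r-/- day 14 library none was DE. Mzb1, a chaperone of antibody assembly, went from 1056 CPM (WT) and 1192 (Il21r-/-) to 1326 and 1641, Jchain from 2283 and 2462 to 2516 and 3314, and Sec11c from 160 and 183 to 208 and 274. None of these passed after correction, and 1 gene of the list did. Xbp1, the main driver of the secretory programme, had a log2 fold change of -0.08 (adjusted p = 0.574). Among constant genes of the antibody heavy chain, Ighg1, the class the cells were sorted for, fell from 3266 and 3838 CPM to 2676 and 2967 (-0.33, SE 0.0940, edgeR adjusted p = 0.0127), and Ighm from 377 and 274 to 255 and 217. No GC content was available for these genes, and they were not in the corrected fit.

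Other programmes changed in a few genes each. Of 30 amino acid, ATF4 and mTORC1 genes, 6 were DE and higher and 1 lower, with a median of 0.11 (0.22 after correction, 4 higher and 1 lower). The enzymes of serine synthesis Phgdh (0.39) and Psat1 (0.37) and asparagine synthetase Asns (0.44) rose in both fits. Slc1a5, a glutamine transporter, fell from 141 and 139.5 CPM to 84.3 and 103 (-0.59, SE 0.104, edgeR adjusted p = 0.0003). Of 31 genes of cholesterol and fatty acid synthesis, 7 were lower, among them Srebf1, Srebf2 and Fasn, and 2 were higher, Idi1 and Msmo1. Only Idi1 passed after correction. Of 29 glycolysis and hypoxia genes, 3 were higher and 4 lower, and none passed after correction. Among 23 class II antigen presentation genes, Ctsh was higher and the transactivator Ciita, Ifi30 and Ctsz were lower, and after correction 5 were lower. Of 30 survival and apoptosis genes, 6 were higher and 2 lower, and after correction 3 were higher. The 6 higher without the correction included the p53 target Cdkn1a, at 1.34 and 1.60 CPM on day 10 and 2.86 and 3.09 on day 14. They also included the death receptor Fas, at 141 and 151 CPM on day 10 and 161 and 196 on day 14. Cdkn1a passed after correction (adjusted p = 0.0355) and Fas did not (0.347).

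Of 27 immediate early and stress genes, which respond to cell handling as well as to stimulation, 2 were DE and higher and 4 lower, and after correction 3 were higher and 2 lower. Hspa8, a constitutive heat shock protein, rose from 1848 CPM (WT) and 1634 (Il21r-/-) to 2636 and 2087 (0.43, SE 0.0921, edgeR adjusted p = 0.00162). Hspa1b, an inducible one, rose from 1.30 and 1.49 CPM to 2.62 and 4.70. Zfp36, which degrades cytokine mRNAs, fell from 79.0 and 98.7 CPM to 57.4 and 75.2. Fos (0.67, adjusted p = 0.354) and Junb (0.12, adjusted p = 0.495) did not pass.

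**Figure D4:**
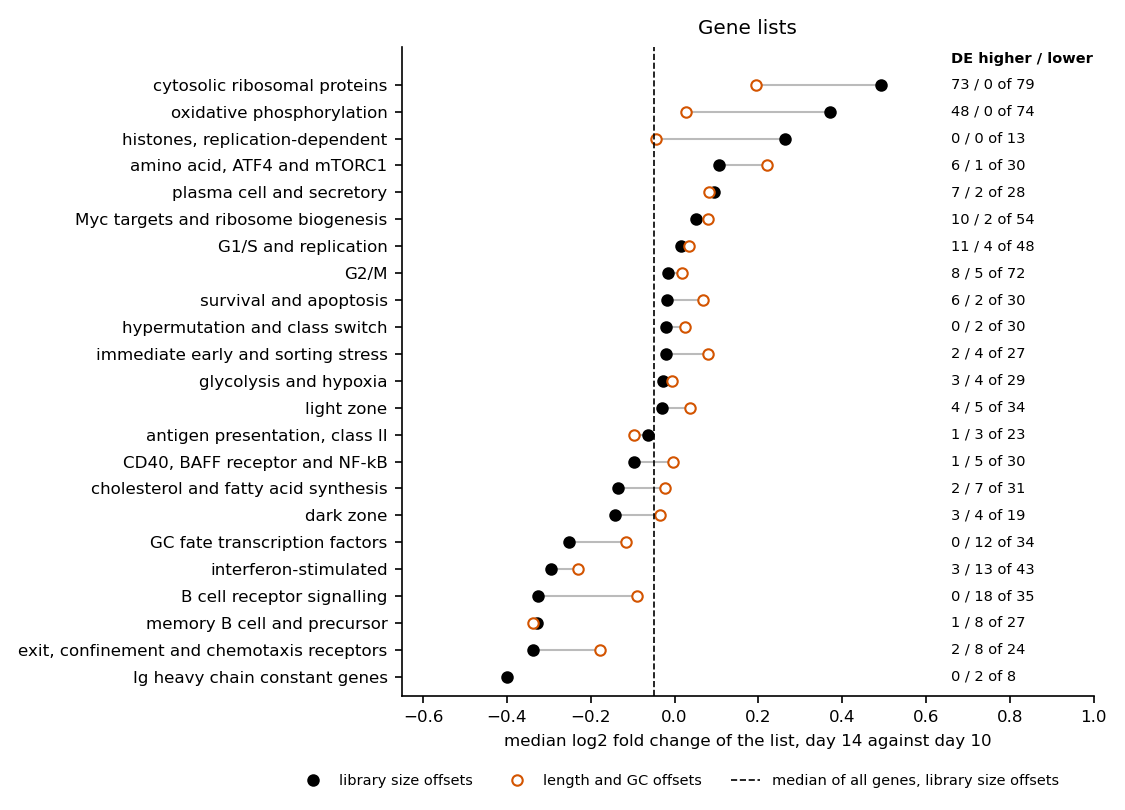
Median log2 fold change of day 14 against day 10 (horizontal) for 23 gene lists (vertical), in the fit with library size offsets (black) and in the fit with length and GC offsets (open, where available). Numbers at the right are the DE genes higher and lower in the first fit among those tested. Ribosomal proteins lie highest in the first fit at 0.49, and oxidative phosphorylation moves from 0.37 to 0.03 between the fits.

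The genes with the largest folds were mostly expressed at a low level. Of the 12 that rose most among those named by rule, 11 stayed under 20 CPM in all 4 libraries, Rgs13 being the exception, and of the 12 that fell most all did. Those that rose were led by Slc40a1, the iron exporter of macrophages that recycle red cells, at 1.02 CPM (WT) and 0.610 (Il21r-/-) on day 10 and 2.06 and 7.07 on day 14, and by Vcam1, an adhesion molecule of stromal cells and macrophages, at 0.772 and 0.457 and then 1.36 and 5.42. The globin genes Hba-a1 and Hbb-bs also rose, from 0.800 to 1.95 CPM on day 10 to 3.42 to 5.78 on day 14. They were the 2 DE genes among 5 erythroid markers tested. Hba-a2 went from 5.85 CPM (WT) and 2.44 (Il21r-/-) to 11.5 and 21.4 and was not DE. Hemgn went the other way, from 20.3 and 26.6 CPM to 13.5 and 23.2, as did Car2, from 4.47 and 7.51 to 3.75 and 7.39. The rise of Slc40a1, Vcam1, Hba-a1 and Hbb-bs was larger in Il21r-/- than in WT. With 1 library per genotype and day, no test could decide that difference. Slc40a1 (adjusted p = 0.0539) and Vcam1 (0.0591) did not pass after correction. The size of the rise of these 4 genes depended on the Il21r-/- libraries. Without Il21r-/- day 10 the log2 fold changes were 0.957 (Hbb-bs) to 1.275 (Slc40a1), and without Il21r-/- day 14 they were 1.253 (Hbb-bs) to 1.55 (Slc40a1). Without either WT library they were 2.238 (Hbb-bs) to 3.411 (Vcam1).

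Of 11 tested macrophage and myeloid markers, 6 were DE and higher on day 14 (54.5%) and 1, Mpeg1, was lower. After correction 5 were higher and 1 lower. DESeq2 gave no adjusted p for the 6 that rose, so it cannot be set beside edgeR there. Their log2 fold changes ran from 0.75 (Tyrobp) to 2.37 (Lyz2) without the Il21r-/- day 10 library. They ran from 0.85 (Tyrobp) to 2.73 (Lyz2) without the Il21r-/- day 14 library. Without the WT day 10 library they ran from 1.18 (Adgre1) to 2.96 (Csf1r). C1qa, C1qc, Csf1r and Tyrobp rose less without either Il21r-/- library than without either WT library. C1qc was at 0.92 and 0.90 without Il21r-/- day 10 and day 14, and at 2.65 and 2.49 without WT day 10 and day 14. The reverse held for Lyz2, and Adgre1 was highest without Il21r-/- day 10 (2.11). Lyz2, which encodes lysozyme, had 13 and 20 reads in the day 10 libraries and 70 and 65 in the day 14 libraries (log2 fold change 2.19, SE 0.370, edgeR adjusted p = 0.000124). C1qa, a complement subunit, had 9 and 15 reads on day 10 and 23 and 76 on day 14, and C1qc had 13 in each library on day 10 and 16 and 88 on day 14. The receptor gene Csf1r, Adgre1 and Tyrobp were DE and higher as well, Tyrobp not after correction (adjusted p = 0.255). No DE gene that was higher in this list exceeded 3.53 CPM, and the summed level of the 18 markers found was 187 and 202 CPM on day 10 and 179.5 and 212 on day 14, most of it from Cst3, Lst1 and Mpeg1. The summed level of the 11 erythroid markers found was 35.1 and 39.1 CPM on day 10 and 36.4 and 64.9 on day 14. The part of such cells in the rise of Slc40a1, Vcam1 and the globins was not tested.

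Others of the genes that rose most are not markers of those lists. Nrep, which encodes a small intracellular protein first described in neurons, went from 6.46 CPM (WT) and 6.82 (Il21r-/-) on day 10 to 14.6 and 13.5 on day 14, with 3.33 and 2.92 on day 7 (log2 fold change 1.08, SE 0.175, edgeR adjusted p = 0.000133), and passed in the corrected fit and without each library. Anxa10 went from 0.569 and 2.70 CPM to 3.04 and 7.23, and Ranbp17 from 2.36 and 1.41 to 5.24 and 4.01, both also DE after correction. Mgmt, a repair enzyme for alkylated DNA, went from 0.772 CPM in WT and 1.90 in its Il21r-/- counterpart to 0.796 and 5.90, so that its rise came from Il21r-/-, and Prxl2b and Cib2 were the other genes that rose most.

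Among the genes that fell most, Stat4, a transducer of IL-12 and type I interferon signals, went from 7.85 CPM (WT) and 13.4 (Il21r-/-) to 2.81 and 6.22, after 17.4 and 20.5 on day 7 (log2 fold change -1.24, SE 0.196, edgeR adjusted p = 0.000148). It passed in the corrected fit and lost its call without the Il21r-/- day 10 library (adjusted p = 0.0895). Ptpn22, a phosphatase that dampens antigen receptor signalling, went from 2.03 and 8.23 CPM to 1.03 and 2.93, and Sh2d2a, an adaptor, from 3.13 and 4.61 to 1.69 and 1.20. Lifr, a cytokine receptor subunit, differed more between genotypes than between days, at 1.38 CPM (WT) and 13.4 (Il21r-/-) on day 10 and 0.656 and 4.42 on day 14. Carmil1 had the same layout. Myo7a, Nid1, Slc29a4, Cacna1e and Cd93 completed the list, with log2 fold changes from -1.20 to -1.29. Over both directions, 16 of the 24 genes with the largest changes passed after correction.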

How the data were processed

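The 4 libraries of days 10 and 14, and the 2 of day 7 for the estimate of spread, were RNA-seq libraries of 1 WT and 1 Il21r-/- sample per day. The authors used Rsubread to align single-end reads of 100 bp to mm10, pooled technical replicates, summarised reads over the RefSeq genes built into featureCounts, and deposited raw read counts without normalization or gene filter. The strand and multi-mapping settings are not given in the sources used here, and the library kit does not mark strand, so reads of overlapping antisense genes cannot be told apart. Symbols and positions came from RefSeq (GRCm38.p6) for 25275 of 27179 identifiers and from GENCODE for 18 more. Identifiers without a symbol numbered 1886.

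Tests were made with R 4.3.3, edgeR 4.0.16, limma 3.58.1 and DESeq2 1.42.0. Left out, as in the study's methods, were genes averaging under 0 log2 CPM, Ig variable genes (226), Xist and genes of the Y chromosome (110), and 11005 genes were tested with TMM factors. The model held genotype and day as factors over all 6 libraries (2 residual degrees of freedom), and day 14 was set against day 10 with the robust quasi-likelihood F test, two-sided, with Benjamini-Hochberg adjustment over all genes. Every adjusted p in the text comes from edgeR unless DESeq2 is named. Log2 fold changes have day 14 over day 10. The libraries were paired by their labelled genotype. With 1 library per genotype and day, p-values measure the spread that genotype and day do not explain, which may be technical. Depth was 21353438 to 27435124 counts per library, and precision at low counts is limited by counting error. On simulated counts of 11005 genes for the day 14 versus day 10 test, 68.2% of 1.5-fold, 92.5% of 2-fold and 100% of 4-fold changes were found, with 6 false calls. These counts were drawn for each gene on its own, without a trend on length or GC content and without a session effect. The real data have such a trend, so the simulation does not give the rate of false calls in them.

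Genes named were DE, with one sign in both genotypes, a mean of at least 2 CPM and an approved symbol: the 12 with the largest change and the 5 with the smallest p in each direction, up to 6 DE members per list and direction, and Il21r, Myc, Foxo1, Cxcr4, Cd86, Bcl6, Prdm1, Mki67, Ccnd3 and S1pr2. Some genes that these rules name are not reported here. Other members named beside a list were chosen after their values were seen. The comparison, the lists, which were written from general knowledge, and the rules were chosen with earlier results of these data known. The corrections for length, and for length with GC content, were added after the data had been seen. Other alternatives were DESeq2's size factors, DESeq2's Wald test, a GC correction, other filters, the study's likelihood ratio test, fits without the block or without day 7, and leaving out each library.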

Additional observations from a re-analysis of the deposited data

How the results depend on the processing

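The count of 2398 DE genes stayed within 1.5 times under DESeq2's size factors, the GC correction, other gene filters, the non-robust fit, the fit to the 4 libraries alone and without either day 7 library. It was 1570 with DESeq2's Wald test (939 higher and 631 lower), which left 2134 genes without an adjusted p. Length offsets gave 1107, and length and GC offsets gave 680, the last also limited by fewer genes tested. It was 65 with the likelihood ratio test on dispersions from a linear day effect. It was 0 in the edgeR fit without the genotype as replicate block (1387 at an unadjusted p under 0.05), which also left out day 7. The coefficient of biological variation was 20.7% in that fit, against 8.89% with the block over all 6 libraries. Leaving out 1 library gave 84 to 2368, the lowest without Il21r-/- day 10, and length offsets without that library gave 136. The test of the difference between genotypes could not decide under any of its alternatives, since each had 1 library per genotype and day. Signs turned in 3 cases, none past the threshold: Cad (0.033) and Fasn (0.036) with length and GC offsets, and Psmb9 (-0.079) with length offsets and without Il21r-/- day 10. The cause was not tested. Genes under a few CPM, among them most of those with the largest folds, rest on few reads per library.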

Other observations

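Genes outside the lists also moved between day 10 and day 14. Those given here were chosen after their values were seen, among the largest changes of DE genes with a mean of at least 20 CPM in the 4 libraries that stayed DE after correction for length and GC content. Havcr1, which encodes the phosphatidylserine receptor TIM-1, went from 156 CPM (WT) and 225 (Il21r-/-) on day 10 to 246 and 353 on day 14 (log2 fold change 0.65, SE 0.0963, edgeR adjusted p = 5.85e-05). Glrx3, a glutaredoxin of iron-sulfur cluster supply, went from 206 and 131 CPM to 317 and 211, and Igf2bp3, an RNA-binding protein of fetal lymphoid cells, from 35.3 and 16.3 to 59.1 and 25.9. The BMP receptor gene Bmpr1a and the mitochondrial genes Hsd17b10 and Pet100 rose by 0.64 to 0.66 on the log2 scale.

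Among those that fell, Hivep3, a zinc finger factor, went from 20.8 CPM (WT) and 37.0 (Il21r-/-) to 12.6 and 12.4 (log2 fold change -1.18, SE 0.210, edgeR adjusted p = 0.00477). Ptprj, the receptor phosphatase CD148, which acts on Src family kinases, went from 30.2 and 38.4 CPM to 20.1 and 12.8. Both libraries of day 14 lay under both of day 10 for these genes. Rnf213, a large ubiquitin ligase, went from 53.6 and 73.0 CPM to 34.8 and 31.8. Notch2, the receptor that specifies marginal zone B cells, went from 16.7 and 50.0 CPM to 11.9 and 21.8. The Il21r-/- library of day 14 thus still lay above the WT library of day 10. Without the Il21r-/- day 10 library the log2 fold change was -0.41 for Notch2, -0.71 for Hivep3 and -0.70 for Ptprj. Without the WT day 10 library it was -1.26, -1.59 and -1.455. Pxdc1, the semaphorin gene Sema4b and Pear1 fell by 0.98, 0.90 and 0.89 on the log2 scale.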
